A study of Mus musculus with 24 samples.

Results

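A set of 10 classic targets of the glucocorticoid receptor, Sgk1, Tsc22d3, Zbtb16, Cdkn1a, Ddit4, Nfkbia, Mt1, Mt2, Errfi1 and Sult1a1, was followed in the hippocampus of female mice. The genes were chosen by name as known glucocorticoid targets in brain. The rule used no values from these samples, but earlier results of these data were known when it was set. All 10 were found among the 46983 genes of the read count table, and all 10 were among the 16209 genes that passed the filter on low counts. Bulk mRNA sequencing covered 24 C57BL/6 mice, 6 in each of 4 groups: Fkbp5lox/lox control, Fkbp5lox/lox ELS, Fkbp5Nex control and Fkbp5Nex ELS. ELS stands for early life stress, given by limited bedding and nesting material in the early postnatal period. Control litters were kept under standard housing. Every mouse, controls included, carried loxP-flanked Fkbp5 alleles. In Fkbp5Nex mice the Nex-Cre driver removes Fkbp5 from glutamatergic neurons of the forebrain from embryonic life on, but not from the dentate gyrus, and other cell types keep the gene. The Fkbp5lox/lox mice are littermates without Cre. RNA came from punches of dorsal and ventral hippocampus of frozen adult brains, with 1 library per mouse. The paper places these females in its first cohort. That cohort had gone through behavioural tests, the Morris water maze among them, and a structural MRI scan. The sources used here do not tie mice to litters, so mice of 1 group may be siblings.

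Corticosterone enters cells and binds the glucocorticoid receptor, which moves to the nucleus and switches genes on or off through glucocorticoid response elements in DNA. FKBP51, the protein made from Fkbp5, sits in the receptor complex with HSP90, lowers the affinity of the receptor for hormone and is itself induced by glucocorticoids, which closes a feedback loop. The target genes followed here act in different places: Sgk1 is a kinase, Tsc22d3 (also called GILZ) and Nfkbia restrain inflammatory transcription, Zbtb16 is a transcription factor, Cdkn1a (p21) stops the cell cycle, Ddit4 (REDD1) inhibits mTORC1 signalling, Errfi1 inhibits the EGF receptor, Mt1 and Mt2 bind zinc and copper, and Sult1a1 sulfonates phenolic compounds. In brain, Mt1 and Mt2 are strongest in astrocytes.

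Promoter windows from RefSeq (GRCm38.p6), each running from 250 bases before to 50 bases after an annotated start, were at hand for 9 of the 10 genes and came to 18 windows. The glucocorticoid response element was searched on both strands in its full palindromic form, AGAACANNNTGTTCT. Of all 32851 mouse windows, 3 held it (0.00913%), and 1 of these belongs to a start of Sgk1. That stretch is shown because it is the palindromic match among the member windows. It covers chr10:21993640-21993889 on the plus strand, inside the Sgk1 gene and outside its annotated exons, and the capitals mark the element, which ends 174 bases before the start.
Sgk1: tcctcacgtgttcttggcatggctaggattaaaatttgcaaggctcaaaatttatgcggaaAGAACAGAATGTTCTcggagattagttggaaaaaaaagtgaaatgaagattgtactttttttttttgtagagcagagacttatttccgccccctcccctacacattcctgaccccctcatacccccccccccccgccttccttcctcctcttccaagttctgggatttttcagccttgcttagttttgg

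Relaxing the element to GNACANNNTGTNC, which the palindrome also satisfies, gave a match in 2 of the 18 windows, against 0.475% of all windows, in the same Sgk1 window and in Mt1. The half-site AGAACA, which lies inside the palindrome, was found in 5 of the 18 windows, against 19.0% of all windows. The core of the metal response element, searched as TGCACNC and TGCGCNC on both strands, was found in 5 of the 18 windows, against 25.7% of all windows. The Mt2 window held 4 cores and the Mt1 window 3, and 1.97% of all windows held 3 or more. The bases before the start of Mt2 (chr8:94172368-94172617, plus strand) and of Mt1 (chr8:94178839-94179078, plus strand) are shown because these neighbours varied together across mice. Capitals mark metal response cores, 3 in the stretch of Mt2 and 1 in that of Mt1, and in Mt1 also the relaxed glucocorticoid core, which ends 81 bases before the start.
Mt2: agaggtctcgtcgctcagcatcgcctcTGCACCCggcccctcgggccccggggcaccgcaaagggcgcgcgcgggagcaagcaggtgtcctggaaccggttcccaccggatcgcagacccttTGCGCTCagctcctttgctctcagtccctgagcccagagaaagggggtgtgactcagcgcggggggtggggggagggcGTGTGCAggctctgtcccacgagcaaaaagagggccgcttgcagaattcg
Mt1: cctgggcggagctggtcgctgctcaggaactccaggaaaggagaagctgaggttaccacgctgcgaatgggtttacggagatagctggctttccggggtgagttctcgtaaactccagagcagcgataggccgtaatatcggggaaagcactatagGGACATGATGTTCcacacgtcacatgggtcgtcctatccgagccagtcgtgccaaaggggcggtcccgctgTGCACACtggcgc
The stretch of Mt2 overlaps exons of Gm45774, an antisense gene. A letter match describes the sequence and does not show binding, and these libraries did not measure binding.

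Library size ran from 18347283 to 26555623 counts per mouse. Fkbp5, which served as the check of the deletion, lay between 47.7 and 63.4 CPM (reads of a gene relative to library size after TMM scaling) in Fkbp5lox/lox mice and between 8.71 and 26.5 CPM in Fkbp5Nex mice, so the genotypes did not overlap. The highest Fkbp5Nex value belonged to mouse 12, a control. Its fitted log2 fold change for genotype was -2.03 (SE 0.09, adjusted p = 2.81e-12 by edgeR's quasi-likelihood method). Markers of neighbouring tissue varied widely: the summed level of 9 choroid plexus genes ran from 19.3 to 4649 CPM and that of 8 thalamus genes from 37.0 to 277 CPM. Mouse 12 also had the highest sums of 8 astrocyte genes (4952 CPM) and 8 microglia genes (469.8 CPM), and a low sum of 8 oligodendrocyte genes (1469 CPM). Its sum of 8 dentate granule cell genes, 565.3 CPM, was the highest among the Fkbp5Nex mice. In bulk tissue, fewer cells of a type and less RNA per cell cannot be told apart.

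All 10 targets were expressed, and their levels spanned a wide range. Per kilobase of exon, the mean over 24 mice was highest for Mt2 at 201 CPM per kb and Mt1 at 162 CPM per kb. Ddit4 followed at 24.04, Sgk1 at 15.3, Tsc22d3 at 11.6, Errfi1 at 10.7, Zbtb16 at 8.52, Nfkbia at 8.42, Sult1a1 at 4.99 and Cdkn1a at 1.45 CPM per kb. The order of Zbtb16 and Nfkbia was not resolved, since Zbtb16 was the higher in 12 of 24 mice. Tsc22d3 was above Errfi1 in 18 of 24 mice, Sgk1 above Tsc22d3 in 22 and Errfi1 above Zbtb16 in 23. For every other neighbouring pair in this order the higher gene led in all 24 mice. Before division by exon length the order of Mt2 and Mt1 was the reverse, with Mt1 at 1.53 to 1.93 times the CPM of Mt2. The exon lengths used were 0.588 kb for Mt2 and 1.246 kb for Mt1, where annotated exons cover the whole gene. The order of Mt2 over Mt1 per kilobase therefore rests on these annotated lengths. Mt1 and Mt2 are paralogs with similar sequence, and how the counting treated reads with several matches is not given in the sources used here, so their split is uncertain. Counts of Cdkn1a, Mt2 and Sult1a1 are uncertain too, since their exons overlap those of AC167363.2, Gm45774 and Sgf29 on the opposite strand and the use of strand in counting is not given.

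No target passed the test for a difference between groups. Removing Fkbp5 from glutamatergic neurons left 0 of 10 targets past the threshold, an FDR of 0.02 in edgeR's quasi-likelihood test, where 22 of all 16209 genes (0.136%) passed. ELS, averaged over both genotypes, moved 0 of 10 targets past it, and 0% of all genes passed. The interaction, coded as the ELS effect in Fkbp5lox/lox minus that in Fkbp5Nex mice, also gave 0 of 10 against 0% of all genes. At an unadjusted threshold of 0.05 in edgeR, Mt2 alone of the 10 passed for genotype, where 11.4% of all genes did. No target did so for ELS, where 3.53% of all genes did, or for the interaction, where 3.95% did. DESeq2 with the same covariates called 0 targets for genotype, where it called 0.407% of all genes, and 0 for ELS and the interaction, where it called 0% of all genes. At an unadjusted p of 0.05, DESeq2 had 1 target for genotype against 10.2% of all genes, 0 for ELS against 2.77% and 0 for the interaction against 3.16%.

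Sgk1 (ENSMUSG00000019970, chr10:21882184-21999903), a serine/threonine kinase that regulates ion channels and is induced within hours by corticosterone, had 1045 to 2119 reads per mouse. In Fkbp5lox/lox mice its level ran from 53.3 to 88.6 CPM (median 76.8) under control rearing and from 53.3 to 85.3 CPM (median 74.2) after ELS. Fkbp5Nex mice ran from 69.1 to 92.2 CPM (median 83.9) under control rearing and from 63.0 to 79.2 CPM (median 75.3) after ELS. The lowest 4 values, in mice 44, 8, 68 and 10, spread over 3 groups, and all groups overlapped. Its log2 fold change for genotype was 0.06 (SE 0.04), and the 95% interval allowed a level between 0.978 and 1.11 times that of Fkbp5lox/lox mice. For ELS the log2 fold change was 0.03 (SE 0.05), with an interval from 0.955 to 1.10 times. Its sign depended on the surrogate variables, the covariates that capture variation shared by many genes: without them it was -0.10, and the group means went from 73.9 to 71.2 CPM in Fkbp5lox/lox and from 81.3 to 73.5 CPM in Fkbp5Nex mice.

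Tsc22d3 (ENSMUSG00000031431, chrX:140539528-140600659), which carries the anti-inflammatory leucine zipper protein GILZ, had 802 to 1338 reads per mouse. Fkbp5lox/lox mice ran from 40.6 to 55.4 CPM (median 48.7) under control rearing and from 44.8 to 60.1 CPM (median 48.2) after ELS. Fkbp5Nex mice ran from 46.2 to 55.4 CPM (median 51.6) and, after ELS, from 40.9 to 59.4 CPM (median 53.3). Groups overlapped, and mouse 78 of the Fkbp5lox/lox ELS group stood above its group. The log2 fold change was 0.08 (SE 0.05) for genotype and -0.02 (SE 0.06) for ELS. The intervals ran from 0.981 to 1.14 times for genotype and from 0.905 to 1.07 times for ELS.

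Zbtb16 (ENSMUSG00000066687, chr9:48654297-48836222), the zinc finger transcription factor PLZF, had 478 to 1314 reads per mouse. Its level ran from 37.8 to 59.2 CPM (median 40.4) in Fkbp5lox/lox control mice and from 40.5 to 53.4 CPM (median 46.5) in Fkbp5lox/lox ELS mice. In Fkbp5Nex mice it ran from 21.9 to 50.9 CPM (median 42.0) under control rearing and from 33.3 to 55.9 CPM (median 47.8) after ELS. The lowest of all values belonged to mouse 52 of the Fkbp5Nex control group, with every other mouse at 33.3 CPM or more, and all groups overlapped. The log2 fold change was -0.03 (SE 0.07) for genotype, with an interval from 0.887 to 1.08 times. For ELS it was 0.05 (SE 0.08), with an interval from 0.926 to 1.15 times.

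**Figure D1:**
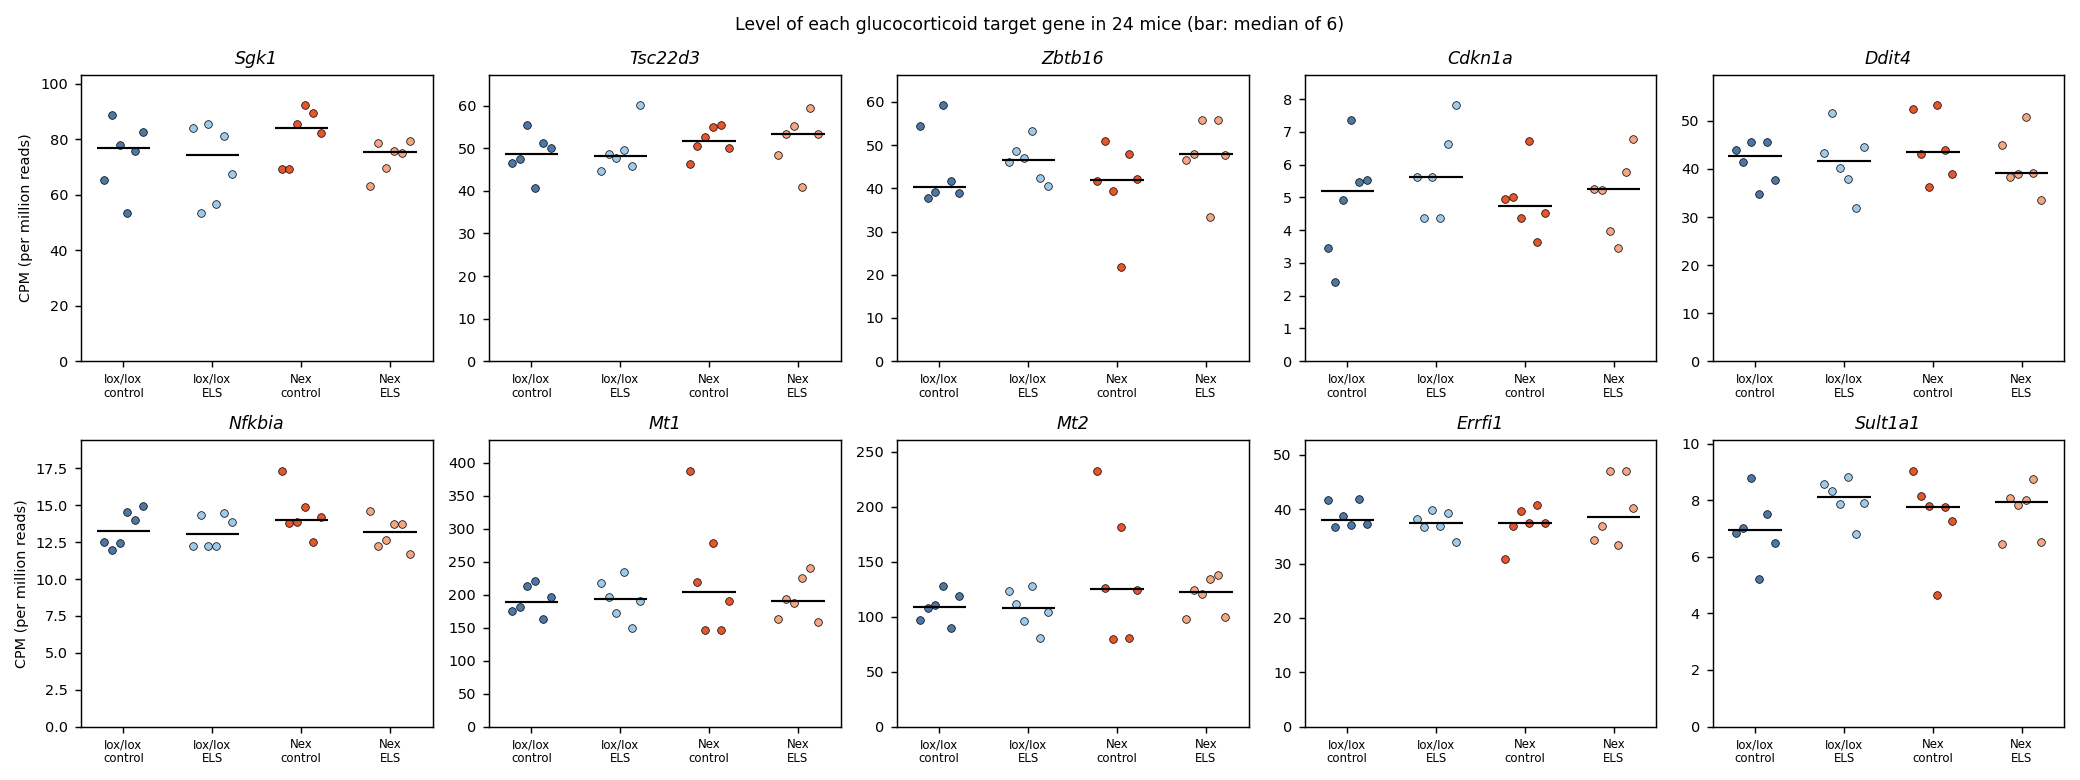
Level of each of the 10 glucocorticoid targets in CPM (vertical axes start at 0) in 24 mice, 1 point per mouse, with bars at the median of 6 mice, for the 4 groups. The groups overlap in every panel, and mouse 12 is the highest Fkbp5Nex control point for Mt1 (388 CPM) and Mt2 (233 CPM).

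Nfkbia (ENSMUSG00000021025, chr12:55489410-55492647), whose product IkappaB-alpha holds NF-kappaB in the cytoplasm, was among the steadiest of the targets. It lay between 12.0 and 15.0 CPM (median 13.3) in Fkbp5lox/lox control mice and between 12.2 and 14.5 CPM (median 13.1) in Fkbp5lox/lox ELS mice. Fkbp5Nex control mice lay between 12.5 and 17.4 CPM (median 14.0), with mouse 12 highest, and Fkbp5Nex ELS mice between 11.7 and 14.6 CPM (median 13.2). Every group overlapped every other. Its log2 fold change was 0.04 (SE 0.05) for genotype and -0.04 (SE 0.05) for ELS. The intervals reached from 0.964 to 1.10 times and from 0.904 to 1.05 times.

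Ddit4 (ENSMUSG00000020108, chr10:59949669-59951834), a stress-induced brake on mTORC1, had 654 to 1397 reads per mouse. Under control rearing it ran from 34.8 to 45.7 CPM (median 42.7) in Fkbp5lox/lox and from 36.2 to 53.3 CPM (median 43.5) in Fkbp5Nex mice. After ELS it ran from 32.0 to 51.7 CPM (median 41.7) in Fkbp5lox/lox and from 33.6 to 50.8 CPM (median 39.1) in Fkbp5Nex mice. Mice 52, 8 and 60 were the highest of their groups, and no group stood apart. The log2 fold change was 0.10 (SE 0.06) for genotype and -0.05 (SE 0.06) for ELS, with intervals from 0.988 to 1.16 times and from 0.881 to 1.05 times.

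Errfi1 (ENSMUSG00000028967, chr4:150853919-150868892), an early-response inhibitor of the EGF receptor, varied little. In Fkbp5lox/lox mice it ran from 36.8 to 41.9 CPM (median 38.0) under control rearing and from 34.0 to 39.9 CPM (median 37.5) after ELS. In Fkbp5Nex mice it ran from 30.9 to 40.8 CPM (median 37.5) and, after ELS, from 33.4 to 47.1 CPM (median 38.6). Mouse 12 was the lowest of all mice, and the groups overlapped. The log2 fold change was -0.02 (SE 0.05) for genotype and 0.01 (SE 0.05) for ELS, with intervals from 0.920 to 1.06 times and from 0.934 to 1.09 times.

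Cdkn1a (ENSMUSG00000023067, chr17:29090976-29100727), the cell cycle inhibitor p21, had 58 to 174 reads per mouse and is the least precise of the 10. It ran from 2.43 to 7.36 CPM (median 5.21) in Fkbp5lox/lox control mice and from 4.37 to 7.81 CPM (median 5.62) in Fkbp5lox/lox ELS mice. Fkbp5Nex mice ran from 3.65 to 6.72 CPM (median 4.74) and, after ELS, from 3.47 to 6.79 CPM (median 5.25). The Fkbp5lox/lox control group alone held both the lowest value, in mouse 30, and the second highest of all, in mouse 44. Its log2 fold change was -0.17 (SE 0.14) for genotype and 0.16 (SE 0.15) for ELS. At this depth a level between 0.730 and 1.08 times for genotype, and between 0.903 and 1.39 times for ELS, lay within the intervals. Leaving out single mice moved the log2 fold change for genotype between -0.42 (without mouse 12) and -0.01 (without mouse 44), and that for ELS between 0.11 (without mouse 42) and 0.37 (without mouse 44).

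Sult1a1 (ENSMUSG00000030711, chr7:126672865-126676432), a cytosolic sulfotransferase, had 102 to 225 reads per mouse. Fkbp5lox/lox control mice ran from 5.21 to 8.79 CPM (median 6.93) and Fkbp5lox/lox ELS mice from 6.80 to 8.81 CPM (median 8.12). Fkbp5Nex control mice ran from 4.66 to 9.05 CPM (median 7.77) and Fkbp5Nex ELS mice from 6.44 to 8.76 CPM (median 7.92). The groups overlapped, and mouse 52 gave the lowest value. The log2 fold change was 0.08 (SE 0.08) for genotype and 0.13 (SE 0.09) for ELS. In Fkbp5lox/lox mice alone, the log2 fold change for ELS was 0.25 (SE 0.12), with an interval from 0.998 to 1.41 times, and it lay between 0.10 and 0.38 when single mice were left out. An exact two-sided permutation test of that difference gave p = 0.0844, the smallest among 70 such tests of the 10 genes in 7 contrasts.

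Mt1 (ENSMUSG00000031765, chr8:94179082-94180327) and Mt2 (ENSMUSG00000031762, chr8:94172664-94173568) encode metallothioneins, and Mt2 ends 5513 bases before Mt1 starts. Mt1 ran from 163 to 220 CPM (median 188) in Fkbp5lox/lox control mice and from 150 to 235 CPM (median 193) in Fkbp5lox/lox ELS mice. It ran from 147 to 388 CPM (median 204) in Fkbp5Nex control mice and from 159 to 240 CPM (median 190) in Fkbp5Nex ELS mice. Mouse 12, with 8539 reads of Mt1, was the highest of all and Fkbp5Nex control mouse 42 the lowest.
Mt2 ran from 89.9 to 128 CPM (median 109) in Fkbp5lox/lox control mice and from 80.9 to 128 CPM (median 108) in Fkbp5lox/lox ELS mice. It ran from 79.7 to 233 CPM (median 125) in Fkbp5Nex control mice and from 98.0 to 138 CPM (median 123) in Fkbp5Nex ELS mice. Groups overlapped for both genes. The Fkbp5Nex control group held the lowest and the highest mouse of each, with a coefficient of variation of 40.6% for Mt1 and 43.6% for Mt2, against 11.7% and 12.8% in Fkbp5lox/lox control mice.

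Mt2 came closest to a difference between genotypes. Its log2 fold change was 0.20 (SE 0.07), with an interval from 1.04 to 1.28 times and an unadjusted p of 0.00986, which edgeR's adjustment over 16209 genes raised to 0.266. Leaving out single mice moved its log2 fold change between 0.09 and 0.25, and without mice 12 and 52 together it was 0.18 with an unadjusted p of 0.162. An exact permutation test on log2 CPM gave p = 0.192. In the same contrast 7 of 8 astrocyte markers were above 0, with a median of 0.12 and 0 called, and 8 of 8 microglia markers were, with a median of 0.08 and 0 called. Oligodendrocyte and endothelial markers were also above 0 in 8 of 8 each, with medians of 0.12 and 0.15 and 0 called. Dentate granule cell markers were above 0 in 0 of 8 (median -0.54, 3 called lower). Choroid plexus markers were above 0 in 0 of 5 tested (median -1.20, 1 called lower). The part of these markers in the Mt2 difference was not tested. The log2 fold change of Mt1 was 0.11 (SE 0.07), with an interval from 0.973 to 1.19 times. For ELS, the log2 fold change was 0.05 (SE 0.08) for Mt1 and 0.08 (SE 0.08) for Mt2, and without surrogate variables it was -0.11 for each. The group means of Mt2 went from 109 to 107 CPM with ELS in Fkbp5lox/lox and from 138 to 119 CPM in Fkbp5Nex mice.

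**Figure D2:**
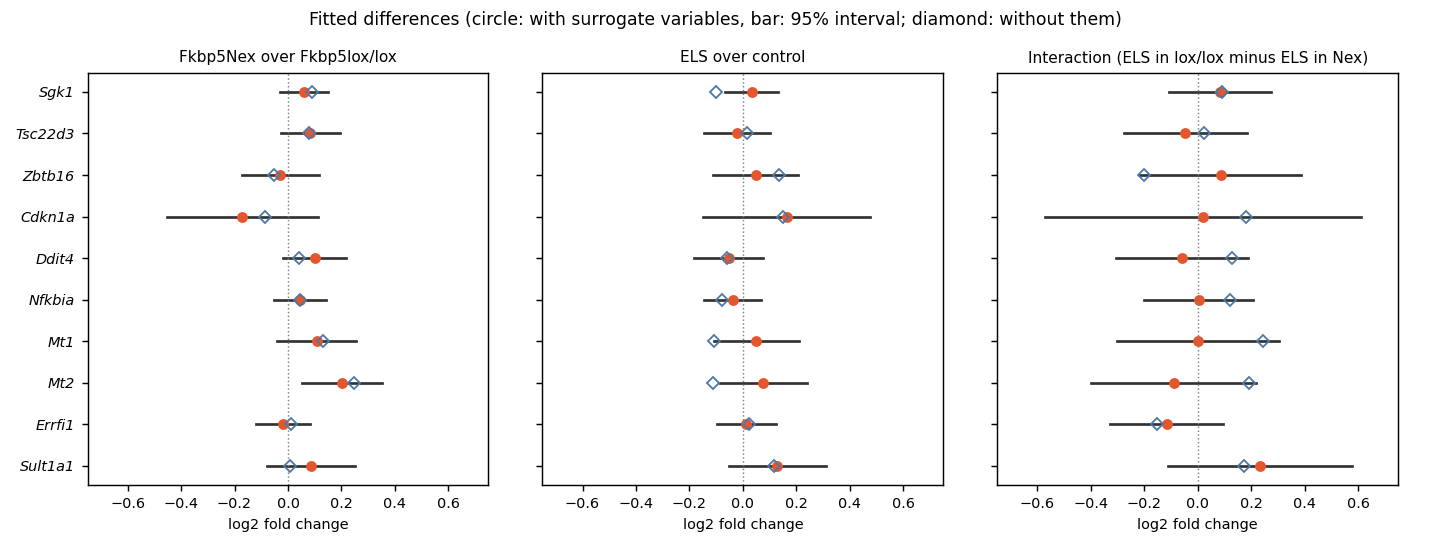
Fitted log2 fold changes of the 10 genes for genotype, ELS and their interaction. Circles are estimates with surrogate variables and bars their 95% intervals, and diamonds are estimates without surrogate variables. Mt2 for genotype (0.20) is the 1 estimate whose interval leaves out 0.

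The interaction, which asks whether the ELS effect on the targets differed between Fkbp5lox/lox and Fkbp5Nex mice, was then estimated gene by gene. Its log2 value ran from -0.12 (SE 0.10) for Errfi1 to 0.23 (SE 0.17) for Sult1a1. It was 0.08 (SE 0.09) for Sgk1 and -0.05 (SE 0.11) for Tsc22d3. Over the 10 genes the median was 0.0018 and over all genes 0.00027, and 5 of the 10 were above 0. Without surrogate variables 8 of the 10 were above 0, with a median of 0.12 against 0.0082 over all genes. For genotype the median over the targets was 0.071 against -0.0017 over all genes, with 7 of 10 above 0, and for ELS it was 0.040 against 0.0029, again with 7 above 0. Without surrogate variables the ELS median was -0.02 against -0.001 over all genes, with 5 of 10 above 0, and the genotype median 0.04 against 0.0018, with 8 above 0.

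Split into single comparisons, no target passed either. ELS left 0 of 10 targets past the threshold in Fkbp5lox/lox mice (0% of all genes) and 0 of 10 in Fkbp5Nex mice (0% of all genes). Genotype left 0 of 10 under control rearing (0.074% of all genes) and 0 of 10 after ELS (0.0123% of all genes). At an unadjusted p of 0.05 the counts were 0, 0 and 0 for the first 3 comparisons, against 4.98%, 2.76% and 8.78% of all genes. After ELS, Mt2 again was the 1 gene under it, at a log2 fold change of 0.25 (SE 0.11), against 6.3% of all genes. DESeq2 called 0 targets in all 4, against 0.00617%, 0%, 0.34% and 0.0247% of all genes. It had 0, 0, 0 and 1 under an unadjusted p of 0.05, against 4.15%, 2.04%, 7.82% and 5.41%. The 4 comparisons share mice, so their counts are not independent. With 6 against 6 mice, an exact permutation test allows a p as small as 0.00216. No target separated any 2 of the 4 groups without overlap, in 60 pairs of groups compared, and over all tested genes 0.153% of such pairs did so. Over all genes, ELS separated 0.0925% in Fkbp5lox/lox and 0.0679% in Fkbp5Nex mice, genotype 0.16% under control rearing and 0.173% after ELS, and the 2 mixed pairs of groups 0.284% (Fkbp5lox/lox control against Fkbp5Nex ELS) and 0.142%.

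From mouse to mouse within groups, the targets differed in how much they varied. The SD of log2 CPM around the group means was 0.39 for Cdkn1a, 0.36 for Mt2, 0.33 for Mt1 and 0.30 for Zbtb16, against a median of 0.18 over all tested genes. Sult1a1 and Sgk1 came at 0.23 each and Ddit4 at 0.21. Tsc22d3 at 0.15, Errfi1 at 0.14 and Nfkbia at 0.13 varied less than the median gene. The surrogate variables took up 82.7% of this variation for Sgk1, 79.2% for Mt2 and 76.6% for Mt1. For Tsc22d3 and Cdkn1a they took up 39.7% and 40.2%, with a median of 56.5% over all genes.

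Whether the targets rose and fell together in the same mice was examined on deviations from the group means in 24 mice. Of 45 pairs, 20 had a positive and 25 a negative correlation, with a median Pearson's r of -0.041. One pair passed Benjamini-Hochberg adjustment over the 45, Mt1 with Mt2, at r = 0.975 and Spearman's rho = 0.965 (100000 permutations within groups, adjusted p = 0.00045 for both, from a permutation p of 1e-05, the smallest they can give). Without mice 12 and 42, the farthest from the median of Mt1, r was 0.957. With surrogate variables regressed out, the median r was 0.111 and 4 pairs passed: Mt1 with Mt2 (r = 0.899), Zbtb16 with Errfi1 (0.762), Sgk1 with Ddit4 (-0.669) and Mt1 with Sult1a1 (0.640). Before that step Zbtb16 with Errfi1 had r = 0.332, Sgk1 with Ddit4 -0.159 and Mt1 with Sult1a1 0.140. The surrogate variables were estimated from the same mice's expression, so the r after that step are given as a description. The ratio of Mt1 to Mt2 CPM stayed between 1.53 and 1.93 in all 24 mice.

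On the deviations themselves the next pairs did not pass. Sgk1 and Zbtb16 ran opposite, at r = -0.511 and rho = -0.555 (permutation, adjusted p = 0.0871 and 0.119). Ddit4 with Mt1 had r = 0.475 and Tsc22d3 with Errfi1 r = 0.456, each with a permutation p that adjusted to 0.256. Libraries share depth and tissue makeup, so these correlations describe the samples. Among the 12 Fkbp5lox/lox mice, where Fkbp5 is intact, the target closest to Fkbp5 was Errfi1 at r = 0.583 and rho = 0.538 (permutation, adjusted p = 0.627 over 10 genes). Sgk1 had r = -0.00077 and Tsc22d3 r = 0.076 with Fkbp5.

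**Figure D3:**
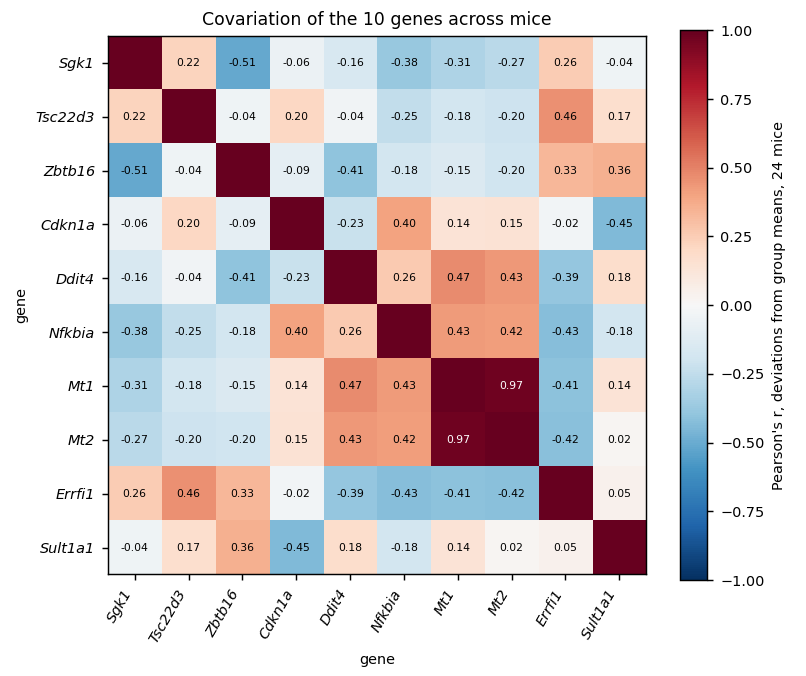
Pearson's r between the 10 genes over 24 mice, computed on deviations of log2 CPM from the group means, with genes on both axes. Mt1 with Mt2 (0.975) stands out, and the other pairs lie between -0.511 and 0.475.

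Cell makeup and clock genes moved with several targets. Scores of 14 gene lists were related to the 10 genes in the same way, in 140 relations, of which 28 passed adjustment on Pearson's r and 7 on both r and rho. Sgk1 fell as 9 clock genes rose, at r = -0.844 and rho = -0.803 (permutation, adjusted p = 0.0042 and 0.0084), and r was -0.839 without the 2 mice farthest from the median. This held in Fkbp5lox/lox mice (r = -0.902) and Fkbp5Nex mice (r = -0.682). Mice 44, 8 and 68, the lowest 3 for Sgk1, had summed clock gene levels of 893, 960 and 923 CPM, the highest of the 24. Zbtb16 rose with the same list, at r = 0.672 and rho = 0.710 (permutation, adjusted p = 0.0049 and 0.0126). Per2, Per3, Dbp, Nr1d1, Nr1d2, Arntl, Clock, Ciart and Tef were averaged, which mixes genes of opposite phase, and the hour of collection per mouse was not used here.

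Mt1 and Mt2 followed astrocyte markers (Aqp4, Gja1, Aldh1l1 and 5 others), at r = 0.807 and 0.798, with permutation p adjusted to 0.0084 and 0.0101. On ranks the relations were weaker, at rho = 0.632 and 0.591, and did not pass adjustment (permutation, adjusted p = 0.0535 and 0.0621). For Mt1, r was 0.628 without mice 12 and 42, 0.893 in Fkbp5Nex and 0.362 in Fkbp5lox/lox mice. Microglia markers ran with both genes as well, at r = 0.752 for Mt1 and 0.769 for Mt2 (permutation, adjusted p = 0.02 each), with rho of 0.574 and 0.507 that did not pass. With the 28 other glucocorticoid-responsive genes described last, Mt1 had r = 0.626 and Mt2 r = 0.525 (permutation, adjusted p = 0.02 and 0.0439). Sgk1 ran opposite to that list, at r = -0.545 (permutation, adjusted p = 0.0435). The rho of these relations, 0.562, 0.495 and -0.608, did not pass. Sgk1 also followed choroid plexus and oligodendrocyte markers, at r = 0.617 and 0.560, and ran opposite to dentate granule cell markers, at r = -0.553. These passed on r (permutation, adjusted p = 0.0391, 0.0472 and 0.0439) and not on rho. Mt1 also followed dentate granule cell markers, at r = 0.701 and rho = 0.680 (permutation, adjusted p = 0.02 and 0.0305), and ran opposite to oligodendrocyte markers, at r = -0.677. Ddit4 followed dentate granule cell markers, at r = 0.695 and rho = 0.651 (permutation, adjusted p = 0.02 and 0.033).
Errfi1 ran opposite to dentate granule cell markers, at r = -0.573, and followed choroid plexus markers, at r = 0.604 and rho = 0.656 (permutation, adjusted p = 0.02 and 0.0305). Tsc22d3 followed thalamus markers, at r = 0.566 and rho = 0.632 (permutation, adjusted p = 0.0394 and 0.033). On r alone, Tsc22d3 followed oligodendrocyte markers (r = 0.600) and Errfi1 ran opposite to astrocyte markers (r = -0.601). Their permutation p adjusted to 0.0203 and 0.0439. Other relations that passed on r alone are not listed. Cdkn1a, Nfkbia and Sult1a1 had no relation that passed. Summed astrocyte markers ran from 2008 to 4952 CPM and dentate granule cell markers from 114 to 799 CPM over the mice. The part of cell makeup in the levels of the targets was not tested.

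**Figure D4:**
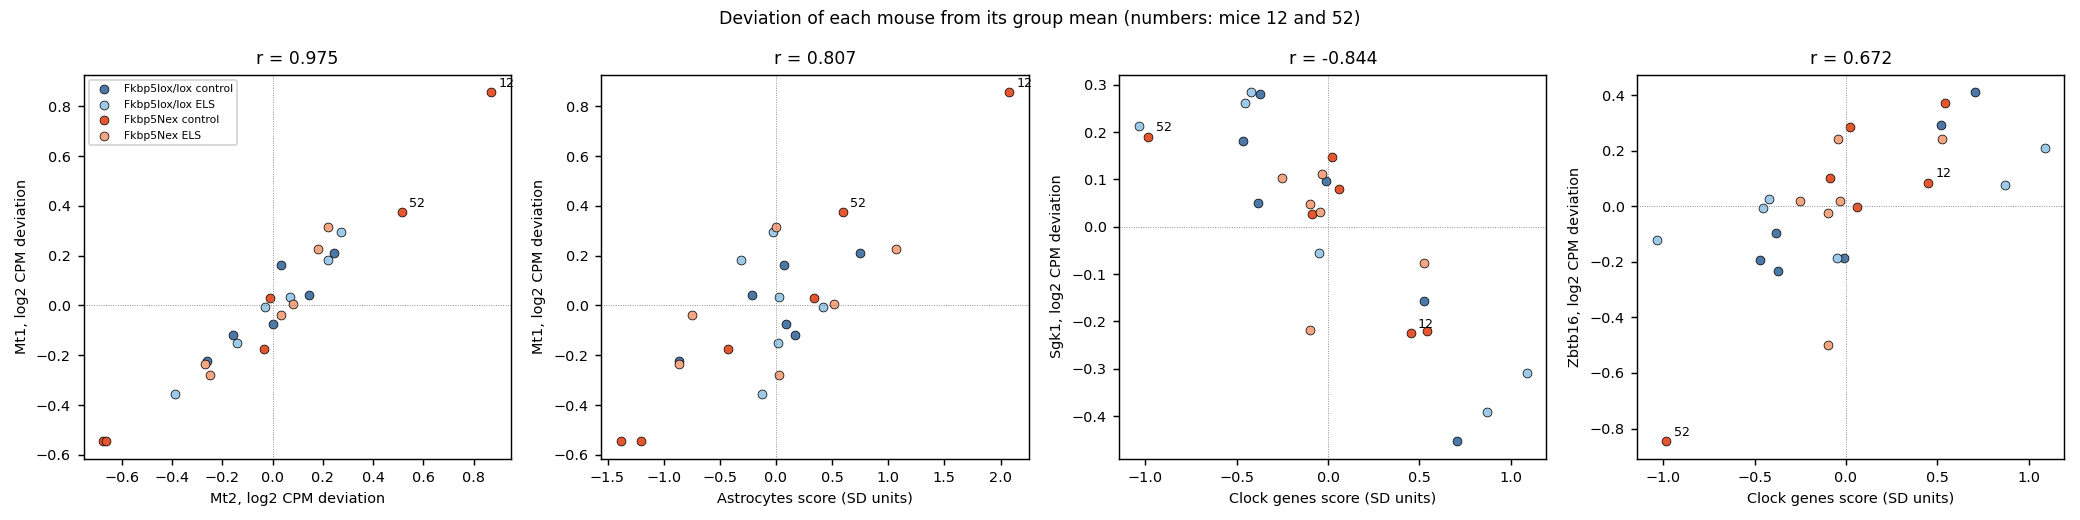
Deviations of single mice from their group means in log2 CPM, with Mt1 against Mt2 and against the astrocyte score, and Sgk1 and Zbtb16 against the clock gene score (scores in SD units), coloured by group. Mt1 and Mt2 fall on 1 line with mouse 12 at the top, and Sgk1 falls while Zbtb16 rises with the clock genes.

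Each target had its own closest companions among the 16209 genes, ranked by r over 24 mice as a description. Those of Sgk1 were Ackr1 (r = 0.904), Syndig1 (0.844) and 2310002F09Rik (0.836), and those of Zbtb16 were Gm25082 (0.908), Ppargc1b (0.853) and Srsf4 (0.846). Ddit4 was most like Ercc1 (0.889), Ubtf (0.842) and Ift20 (0.841). Mt1 was most like Mt2, Pnrc2 (0.885) and Hopx (0.881), and Mt2 like Mt1, Pnrc2 (0.909) and Ramp1 (0.891). Errfi1 was most like Pkd2l1 (0.811), Csnk1a1 (0.778) and Necab2 (0.776). Among the first 3 of Sult1a1 were 9530026P05Rik (0.840) and Gm10010 (0.786). Tsc22d3 was most like Hdhd2 (0.792), Cog4 (0.762) and Cyb5d2 (0.738). For Nfkbia they were Derl2 (0.777), Pvr (0.758) and Sec24d (0.750), and for Cdkn1a Car8 (0.765), Rcn2 (0.717) and Aanat (0.715). No pair of targets other than Mt1 and Mt2 was in each other's first 3.

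A list of 28 further glucocorticoid-responsive genes was measured and tested in full, to set the targets in context. For genotype 0 of 28 were called higher and 1 lower, where 22 of all 16209 genes (0.136%) were called. The median log2 fold change of the list was 0.038, with 18 of 28 above 0. At an unadjusted p of 0.05 in edgeR 8 of the 28 passed, against 11.4% of all genes, with log2 fold changes on both sides of 0. The gene called was Cebpd, a transcription factor of inflammatory and astrocyte responses. It ran from 6.22 to 13.5 CPM (median 10.1) in Fkbp5lox/lox control mice and from 7.96 to 19.7 CPM (median 11.1) in Fkbp5lox/lox ELS mice. In Fkbp5Nex mice it ran from 4.64 to 13.0 CPM (median 6.85) under control rearing and from 5.60 to 10.8 CPM (median 6.06) after ELS, so the groups overlapped. Its log2 fold change was -0.42 (SE 0.08, edgeR's quasi-likelihood test, adjusted p = 0.0127). An exact permutation test gave p = 0.0114 over all mice. The call held with the DESeq2 Wald test (adjusted p = 0.000153). In edgeR it held with DESeq2 size factors (adjusted p = 0.0125), edgeR's own filter (0.0108) and no filter (0.00797). It was lost without surrogate variables (edgeR, adjusted p = 0.607) and in 14 of 24 fits that left out 1 mouse. Those were mice 12, 32, 64, 28, 30, 44, 74, 38, 58, 60, 66, 4, 56 and 72, with adjusted p up to 0.118 for mouse 12. In the same contrast 8 of 8 dentate granule cell markers were below 0 (median log2 fold change -0.54, 3 called lower), as were all 5 choroid plexus markers tested (median -1.20, 1 called lower, Ttr). Thalamus markers were above 0 in 8 of 8 (median 0.41, 0 called) and astrocyte markers in 7 of 8 (median 0.12, 0 called). With choroid plexus and thalamus scores in place of the surrogate variables, the log2 fold change of Cebpd was -0.69 (edgeR, adjusted p = 0.00646). The part of dentate granule cell and astrocyte markers in the Cebpd call was not tested. Cebpd shares exon bases with Spidr on the opposite strand.

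In the other 6 contrasts 0 of the 28 genes were called. Fkbp5, itself induced by glucocorticoids, had a log2 fold change for ELS of 0.23 (SE 0.10, edgeR, unadjusted p = 0.0365, adjusted p = 0.9985). Without surrogate variables it was 0.06. For ELS in Fkbp5lox/lox mice an exact permutation test of Fkbp5 gave p = 0.0541. Per1, a clock gene with strong glucocorticoid response elements, had medians from 39.8 to 45.8 CPM over the 4 groups and a log2 fold change for genotype of 0.11 (SE 0.05). The receptor side was also without a call: of Nr3c1 (the glucocorticoid receptor), Nr3c2 (the mineralocorticoid receptor), Hsd11b1 (which regenerates corticosterone) and Fkbp4 (FKBP52), 0 of 4 passed in any of the 7 contrasts. Nr3c2 had a log2 fold change for genotype of -0.13 (SE 0.04, edgeR, adjusted p = 0.205), and Nr3c1 one of -0.03 (SE 0.05).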

How the data were processed

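Hippocampal mRNA libraries of 24 female mice were grouped by the genotype and rearing given in their labels. The authors deposited 1 table of raw read counts per gene, made with HISAT2 2.0.5 and featureCounts 1.5.0-p3, and all 24 sample columns were used. The genome build and strandedness of counting are not given in the sources used here. Positions came from GENCODE vM21 (GRCm38) by gene identifier, and promoter windows from RefSeq.

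A gene was kept if, in at least 1 group, all mice had 10 or more counts. Counts were scaled by TMM, and 1 mean per group plus 5 surrogate variables from svaseq (sva 3.50.0) were fitted with edgeR 4.0.16 in R 4.3.3. Quasi-likelihood p-values were adjusted by Benjamini-Hochberg over all 16209 genes at an FDR of 0.02. The paper's tool, DESeq2 (1.42.0), was an alternative. Surrogate variables carry the same mice's expression, and between 3.32% and 23.1% of their variance lay between groups. Correlations used log2 CPM (prior count 2) as deviations from group means. Replicates are separate mice. Steps across genes were tested on simulated data.

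The genes named are the 10 targets, Fkbp5, Per1, the 3 genes most like each target, and any listed glucocorticoid-responsive gene past the FDR. One of the genes most like Sult1a1 is not reported here. Genes of the marker, clock and receptor lists are named as list members (9 of 10 listed clock genes were in the table), and values of Nr3c1 and Nr3c2 were added after seeing them. The members and lists were chosen with earlier results of these data known. Permutations used scipy 1.17.1 and numpy 2.4.6, tables pandas 2.3.3 and figures matplotlib 3.10.9, in Python 3.11.15. As alternatives, the fit was run with no surrogate variables, size factors from DESeq2, other filters, the DESeq2 Wald test, choroid plexus and thalamus scores as covariates, an FDR of 0.05, and each mouse left out. Leaving out mice 12 and 52 together was chosen after seeing the data.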

Additional observations from a re-analysis of the deposited data

Results flagged for a closer look

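Of 40 sets of 6 mice (10 genes in 4 groups), 1 held a mouse far from the others. Tsc22d3 in Fkbp5lox/lox ELS mouse 78 was at 60.09 CPM, with the next mouse of its group at 49.6 CPM. The gap was 0.687 of the range of the group, above Dixon's 95% critical value for 6 samples. At this cutoff about 1 in 20 sets is flagged where no mouse is an outlier, and the 40 sets share mice. Mouse 78 also had the highest Cdkn1a of all mice (7.81 CPM). Its summed oligodendrocyte markers, 4433 CPM, were the highest of its group. Its summed thalamus markers were 251.8 CPM, in a group that ran from 44.3 to 277 CPM. What set its Tsc22d3 level apart was not tested.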

How the results depend on the processing

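No paired analysis was possible because mouse numbers are unique to each mouse and no number occurs in more than 1 group. No alternative brought a target past the FDR of 0.02. With all mice kept, 160 of 180 fitted log2 fold changes of the targets kept their direction and 20 reversed, and the smallest adjusted p was 0.264. With 1 mouse left out, 676 of 720 kept it and 44 reversed, and the smallest was 0.164. At an FDR of 0.05 the targets called were also 0. The cause of the reversals was not tested.

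Without surrogate variables, log2 fold changes reversed for genotype in Errfi1 (0.012), for ELS in Sgk1 (-0.10), Tsc22d3 (0.015), Mt1 (-0.11) and Mt2 (-0.11), and for the interaction in Tsc22d3 (0.022), Zbtb16 (-0.20), Ddit4 (0.13), Mt1 (0.24) and Mt2 (0.19). With choroid plexus and thalamus scores in their place, they reversed for genotype in Ddit4 (-0.0097) and Errfi1 (0.040), for ELS in Sgk1 (-0.070), Mt1 (-0.025) and Mt2 (-0.027), and for the interaction in Zbtb16 (-0.15), Ddit4 (0.0064), Mt1 (0.23) and Mt2 (0.16). Without a filter, the interaction in Nfkbia became -0.0065. Without mice 12 and 52 of Fkbp5Nex control, genotype in Tsc22d3 became -0.026, and the interaction -0.17 in Cdkn1a, 0.0014 in Ddit4 and 0.016 in Mt1, and Cebpd for genotype had an adjusted p of 0.648 (edgeR).

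Leaving out 1 mouse at a time moved genotype between -0.041 and 0.082 in Nfkbia, -0.015 and 0.097 in Sgk1, and -0.065 and 0.021 in Zbtb16. It moved ELS between -0.027 and 0.030 in Errfi1, -0.025 and 0.14 in Mt1, -0.070 and 0.012 in Nfkbia, -0.038 and 0.058 in Sgk1, and -0.057 and 0.016 in Tsc22d3. It moved the interaction between -0.15 and 0.32 in Cdkn1a, -0.13 and 0.0087 in Ddit4, -0.060 and 0.13 in Mt1, -0.18 and 0.015 in Mt2, -0.052 and 0.16 in Nfkbia, -0.027 and 0.15 in Sgk1, and -0.12 and 0.014 in Tsc22d3.

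Pairs of targets past adjustment went from 1 to 4 once surrogate variables were regressed out. Over all genes, the 22 called for genotype became 3 without surrogate variables, 44 without a filter, 66 with DESeq2, 35 with the scores, 47 at an FDR of 0.05, 2 without mice 12 and 52, and 6 to 35 with 1 mouse left out (beyond 1.5 times for mice 12, 54, 28, 34, 44, 74, 38 and 72). Under control rearing the 12 became 2, 27, 53, 2, 30 and 1 in the same order, 1 with only the mice compared, and 2 to 14 with 1 mouse left out (beyond 1.5 times for mice 12, 44, 74 and 8). After ELS the 2 became 4 with DESeq2, and for ELS in Fkbp5lox/lox mice 0 became 1, as it did for ELS and for ELS in Fkbp5Nex mice without mouse 68. Read counts were lowest in Cdkn1a and Sult1a1, at most 174 and 225 per mouse.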
